A study of Mus musculus with 4 samples.

Results

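Apex1, Pnp, Pnp2 and Upp1 are 4 mouse genes chosen by their platform gene symbols, out of 17097 genes that a single-gene probe set represented on these arrays. Apex1, Pnp and Pnp2 lie in 1 stretch of chromosome 14, and Upp1 on chromosome 11 was added because its enzyme also splits nucleosides. The choice was made with differences between these same arrays in view, so the differences are given as a description and carry no test. RNA came from J1 mouse embryonic stem cells, a pluripotent line grown without feeder cells in medium with 10% serum and LIF. A single array each was hybridised for the scramble control, the scramble control labelled with PRDM14, the Tet1/Tet2 knockdown and the Tet1/Tet2 knockdown labelled with PRDM14. Per the labels' protocols all came from iP14 cells with or without doxycycline, the knockdown cells carrying shTet1/Tet2, although the source label of the scramble array says wild type, and the PRDM14 arrays are labelled as overexpressing it. PRDM14, a regulator of the pluripotent state, is the factor the series asks about, together with the TET dioxygenases that oxidise 5-methylcytosine. The clone, the promoter driving PRDM14 and the length of doxycycline treatment were not stated in these sources, nor were separate cultures. With 1 array per condition there was no spread within a condition, and the number of arrays limits every value below.

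The 4 genes meet at the handling of bases and sugars. When a DNA glycosylase removes a damaged or modified base, an abasic site remains, and the endonuclease encoded by Apex1 (also called APE or Ref-1) cuts the backbone there so that base excision repair can fill the gap. Oxidised 5-methylcytosine made by TET enzymes can be removed by this route, a pathway named in the title of the series. Pnp encodes purine nucleoside phosphorylase, which splits inosine and guanosine and their deoxy forms into a free base and a sugar phosphate, and Pnp2 is its neighbouring paralogue. Upp1 encodes uridine phosphorylase, which does the corresponding step for uridine in pyrimidine salvage.

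The gene order of the mouse reference was compared with the description of Apex1, Pnp and Pnp2 as adjacent. Pnp and Pnp2 were next to each other, with 0 genes between them, but 2 annotated genes, Pip4p1 and the noncoding Gm52117, lay between Apex1 and Pnp. No probe set was annotated to both Pnp and Pnp2: each had 1 of its own, and the number shared by that pair was 0. Probe sequences were not used here, so cross-hybridisation between these paralogues was not tested, and their separate readings are uncertain for that reason. A single probe set was instead shared by Apex1 and its neighbour Pip4p1, a phosphoinositide phosphatase gene. In all, 5 probe sets are therefore described, 4 of single genes and 1 shared, and all 4 single-gene probe sets were above the expression filter of 5.40 on every array.

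RefSeq upstream windows (GRCm38.p6) matched 3 of the 4 genes, Apex1, Pnp and Upp1, and are shown because the 3 genes were higher on the same array while their upstream sequences differ. Each stretch ends at the base before the annotated start, runs 5′ to 3′ on the plus strand, and has its CG dinucleotides, the sites of DNA methylation, in capitals. Only the bases between Osgep and Apex1 are printed for Apex1 (chr14:50924894-50924948), since the rest of its window lies inside Osgep, which is transcribed the other way. The Pnp stretch (chr14:50944053-50944302) and the Upp1 stretch (chr11:9117758-9118007, the first of 3 annotated starts) are 250 bases each.
Apex1: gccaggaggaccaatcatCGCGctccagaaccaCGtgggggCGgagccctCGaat
Pnp: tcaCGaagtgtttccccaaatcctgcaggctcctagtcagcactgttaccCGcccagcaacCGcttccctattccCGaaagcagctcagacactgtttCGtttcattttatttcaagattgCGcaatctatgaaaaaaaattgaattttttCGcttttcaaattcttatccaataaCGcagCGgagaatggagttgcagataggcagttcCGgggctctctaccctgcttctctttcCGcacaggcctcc
Upp1: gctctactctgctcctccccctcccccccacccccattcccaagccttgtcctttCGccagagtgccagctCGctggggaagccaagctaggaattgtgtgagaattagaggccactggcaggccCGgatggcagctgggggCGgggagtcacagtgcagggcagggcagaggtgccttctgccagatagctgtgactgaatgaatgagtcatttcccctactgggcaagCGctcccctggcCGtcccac

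The 250 bases before the start held 28 CG dinucleotides for Apex1, 11 for Pnp and 6 for Upp1, against a median of 6 and quartiles of 2 and 16 over 32851 windows of all genes. The E-box CACGTG was searched on both strands and lay 18 bases before the Apex1 start, with no match for Pnp or Upp1, and 6.02% of all windows held it. The AP-1 motif TGAGTCA lay 38 bases before the first Upp1 start, with no match for Apex1 or Pnp, and was held by 4.46% of windows. GGGCGG was present once in each of the 3 windows (32.7% of windows) and CCAAT once for Apex1 and Pnp (33.8%), and none of these matches overlapped. These are matches of letters within 1 window and say nothing of binding.

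In scramble cells all 4 genes were higher on the array labelled with PRDM14. Upp1 read 8.13 in scramble and 10.28 in scramble with PRDM14, a log2 difference of 2.14 or 4.42-fold. Pnp2 read 7.18 and 9.08, a log2 difference of 1.91 or 3.75-fold. Pnp read 8.84 and 10.54, a log2 difference of 1.70 or 3.24-fold. Apex1 differed least of the 4, reading 7.61 and 8.79, a log2 difference of 1.18 or 2.27-fold. All 4 passed the rule for a called gene, at least 2-fold with the brighter array at or above the filter, in a comparison where 1.09% of 10366 genes were called higher. That share is background only, since these values chose the genes. Ordered by this difference, Upp1 stood 12th from the top, Pnp2 18th, Pnp 26th and Apex1 78th.

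The shared probe set did not show the Apex1 difference. Its signal was 8.15 in scramble, 8.02 in scramble with PRDM14, 7.93 in knockdown and 7.82 in knockdown with PRDM14, a narrow span, while the Apex1 probe set was 1.18 higher with PRDM14 in scramble cells. Its PRDM14 differences were −0.13 in scramble and −0.10 in knockdown cells. Which of the 2 transcripts it reads was not tested. In 3322 genes that had more than 1 probe set above the filter, each probe set's scramble PRDM14 difference was set against its gene's mean. The pooled SD was 0.22. The gap between the 2 readings that carry the Apex1 name is several times that spread of single probe sets, which covers neither cultures nor arrays.

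**Figure D1:**
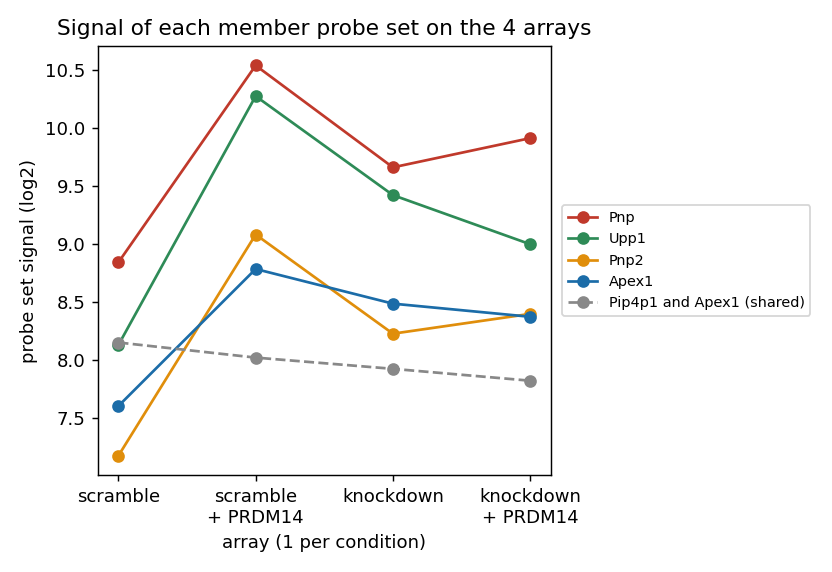
Log2 signal of the 5 probe sets (coloured lines) on the 4 arrays, 1 per condition, with the shared Pip4p1 and Apex1 probe set dashed. The 4 single-gene probe sets are lowest in scramble and highest in scramble with PRDM14, while the shared one stays between 7.82 and 8.15; heights of different probe sets cannot be compared with each other.

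In knockdown cells no member differed by 2-fold between the arrays without and with PRDM14. Pnp read 9.66 and 9.91, a log2 difference of 0.25, and Pnp2 read 8.23 and 8.40, a difference of 0.17. Apex1 read 8.49 and 8.37, a difference of −0.11. Upp1 read 9.42 and 9.00 and pointed the other way from its scramble comparison, at −0.42. Of 4 members 0 were called, in a comparison where 0.359% of 10311 genes were called higher and 0.272% lower. The pooled SD between probe sets was 0.15, so the Apex1 difference lay within it, Pnp2 just beyond it, and Pnp and Upp1 further out. The median of the 4 members was 0.03 here and 1.80 in scramble cells, while the median of all genes tested was within 0.002 of 0 in both.

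**Figure D2:**
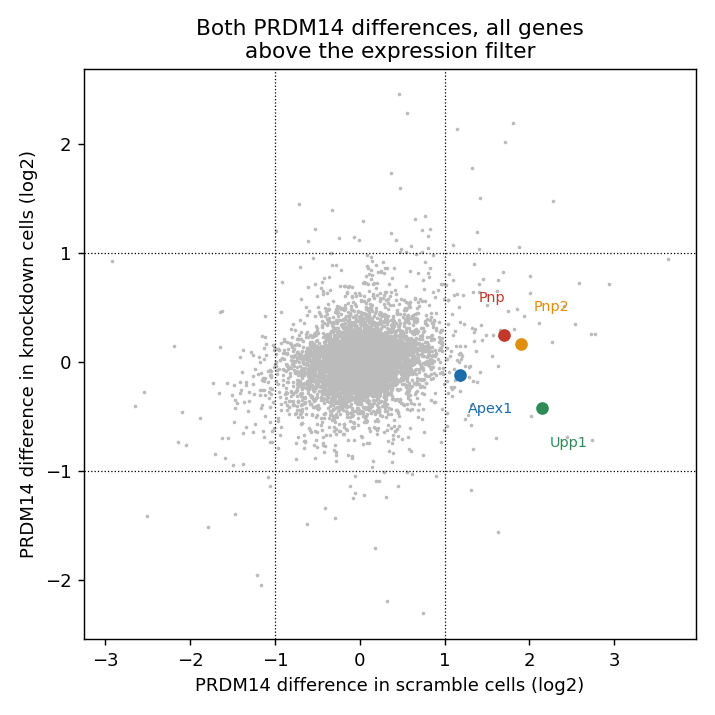
Each grey point is 1 of 10519 genes above the filter, with its log2 PRDM14 difference in scramble cells on the horizontal and in knockdown cells on the vertical axis, and dotted lines at 2-fold. The 4 coloured members lie past 2-fold to the right (1.18 to 2.14) and between −0.42 and 0.25 on the vertical axis.

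The difference of the 2 PRDM14 differences, knockdown minus scramble, was below 0 for all 4 genes. It was −2.57 for Upp1, −1.73 for Pnp2, −1.44 for Pnp and −1.29 for Apex1, each past 2-fold, where 1.29% of 10519 genes were called lower by this measure and 0.979% higher. Only 5 genes had a lower value than Upp1. The shared Pip4p1 and Apex1 probe set was at 0.03. All 4 arrays enter this measure, the scramble array included, and with 1 array per condition it could not be tested.

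Without PRDM14, the 4 genes read higher on the knockdown array than on the scramble array. Upp1 differed by 1.29 (2.45-fold) and Pnp2 by 1.05 (2.07-fold), which made 2 of 4 members called, where 0.618% of 10351 genes were called higher. Apex1 at 0.88 (1.84-fold) and Pnp at 0.82 (1.76-fold) were under 2-fold. This comparison subtracts the same scramble array as the first one, so its likeness to that comparison is not a separate observation. The shared probe set was at −0.23.

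With PRDM14 on both sides, the 4 genes read lower on the knockdown array. Upp1 read 10.28 and 9.00, a log2 difference of −1.28 or 2.42-fold lower, and was the 1 member called lower, where 0.475% of 10322 genes were. Pnp2 was at −0.68, Pnp at −0.63 and Apex1 at −0.41, all under 2-fold, and the pooled SD between probe sets was 0.16. The shared probe set was at −0.20. Each of the 4 genes thus had knockdown differences of opposite sign without and with PRDM14. The gap between these 2 knockdown differences is the same number as the difference of the PRDM14 differences, so it is not a separate observation. The genes were also chosen with differences between these arrays in view, and no replicates allowed a test.

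**Figure D3:**
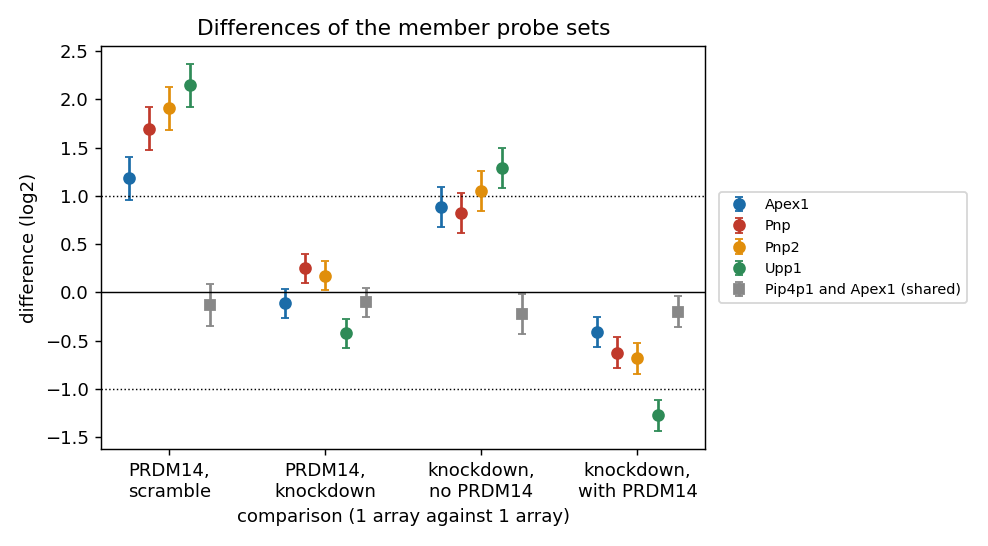
Log2 differences of the 5 probe sets in the 4 comparisons of 1 array with 1 array, with bars of 1 pooled SD between probe sets of the same gene (0.22, 0.15, 0.21 and 0.16 from left to right) and dotted lines at 2-fold. The 4 genes lie above 0 in the scramble PRDM14 comparison and in the knockdown without PRDM14, and below 0 in the knockdown with PRDM14.

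The order of the arrays was nearly the same for the 4 genes. Each was lowest in scramble and highest in scramble with PRDM14, and the knockdown arrays lay between. Pnp and Pnp2 read higher on the knockdown array labelled with PRDM14 than on the other knockdown array, and Apex1 and Upp1 read lower, by the differences given above. Of 10519 genes above the filter, 11.8% were lowest and highest on these same arrays, and of 409 genes with a range of at least 1 on the log2 scale, 76 (18.6%) were. The opposite order, highest in scramble and lowest in scramble with PRDM14, was found for 11.7% of the 10519 and for 67 (16.4%) of the 409. These shares are background only, since the members were chosen with differences between these arrays known. Against the scramble array, the knockdown array labelled with PRDM14 was higher by 1.22 for Pnp2, 1.07 for Pnp, 0.87 for Upp1 and 0.77 for Apex1.

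Both scramble arrays stood apart for the 4 genes. Set against the mean of the other 3 arrays, Upp1 was at −1.43 in scramble and at 1.42 in scramble with PRDM14. For Pnp2 these were −1.39 and 1.15, for Pnp −1.19 and 1.07, and for Apex1 −0.94 and 0.63. The scramble array stood furthest from the rest over all genes as well, with 49 genes at least 2-fold beyond all 3 other arrays against 27, 7 and 12 on the scramble array with PRDM14, the knockdown array and the knockdown array with PRDM14. The 6 Actb and Gapdh control probe sets averaged 12.07 on it and 12.27 to 12.36 on the others, and the 5′ control of 18S rRNA read 11.79 against 10.95 to 11.37. With each array centred on those 6 controls, which moved the median of all genes by −0.29 in the scramble PRDM14 comparison, Apex1 was at 0.89 and no longer 2-fold, and Pnp, Pnp2 and Upp1 were at 1.41, 1.61 and 1.85. The part of these array differences in the members' values was not tested, and leaving that array out removes both comparisons that use it.

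The labels were checked as far as the probe sets allowed. Tet2 read 8.46 and 9.33 on the scramble arrays without and with PRDM14 and 7.50 and 8.15 on the matching knockdown arrays. Prdm14 stayed below the filter on all arrays, between 4.35 and 4.83, so directions of a PRDM14 difference rest on the labels, and Tet1 was not analysed here. All 9 measured stem cell markers of 10 listed, among them Pou5f1, Sox2 and Zfp42, reached the filter, and their summed linear signal was 18133 to 20362 on the 4 arrays. A linear sum weighs the brightest markers most. One of them, Klf4, was called lower in knockdown cells with PRDM14, at −1.21, in the comparison in which Upp1 was, and by the difference of differences, at −1.06. In that knockdown comparison 7 of the 9 markers were below 0 and 2 above, with a median of −0.28 beside 0.003 for all genes. Nanog was at −0.64, Esrrb at −0.52 and Tfcp2l1 at −0.44 there. Of 9 fibroblast markers 1 reached the filter (Dcn, at 5.60 at most), with summed signals of 206.0 to 217.2, of 7 primitive endoderm markers 2 (221.0 to 233.9), of 6 trophectoderm markers 3 (285.5 to 305.1) and of 4 measured mesoderm markers 2 (231.5 to 253.8). The 5 neural markers summed to 188.5 on the scramble array, 300.5 on the scramble array labelled with PRDM14, and 217.7 and 201.4 on the knockdown arrays, in the order in which Upp1 and Apex1 stand, and Pax6 and Tubb3 were the 2 that reached the filter. These 2 differed from each other: for the knockdown without PRDM14 Tubb3 was called higher, at 1.06, and Pax6 was at −0.89. With PRDM14 Pax6 was called lower, at −1.43, and Tubb3 was at −0.17. By the difference of differences Tubb3 was called lower, at −1.23, and Pax6 was at −0.54. Their part in the members' values was not tested. In bulk RNA, fewer cells of a type and less RNA per cell cannot be told apart.

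No measured neighbour of Apex1, Pnp and Pnp2 was 2-fold different in any of the 4 comparisons, where 0.63% to 2.09% of all genes were called. Of 14 neighbours, taken as 6 genes on each side and the 2 in between, 5 had a probe set and 3 reached the filter. At such shares, the absence of calls among those 3 does not set the neighbours apart from other genes. Osgep, which encodes the catalytic subunit of a tRNA-modifying complex and starts next to Apex1 on the other strand, had signals of 7.15 and 7.50 in scramble cells without and with PRDM14 and of 7.61 and 7.32 in knockdown cells. Its 4 differences, 0.35 and −0.29 for PRDM14 in scramble and knockdown cells and 0.46 and −0.18 for the knockdown without and with PRDM14, had the signs of those of Apex1. Another Osgep probe set gave −0.10, 0.02, −0.10 and 0.02. Parp2, which encodes a poly(ADP-ribose) polymerase that senses DNA breaks, read 8.18, 8.08, 7.90 and 7.92, a difference of −0.10. Pip4p1 was read by the shared probe set alone. Klhl33 and Rnase10 stayed below the filter, at most 3.55 and 4.79.

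**Figure D4:**
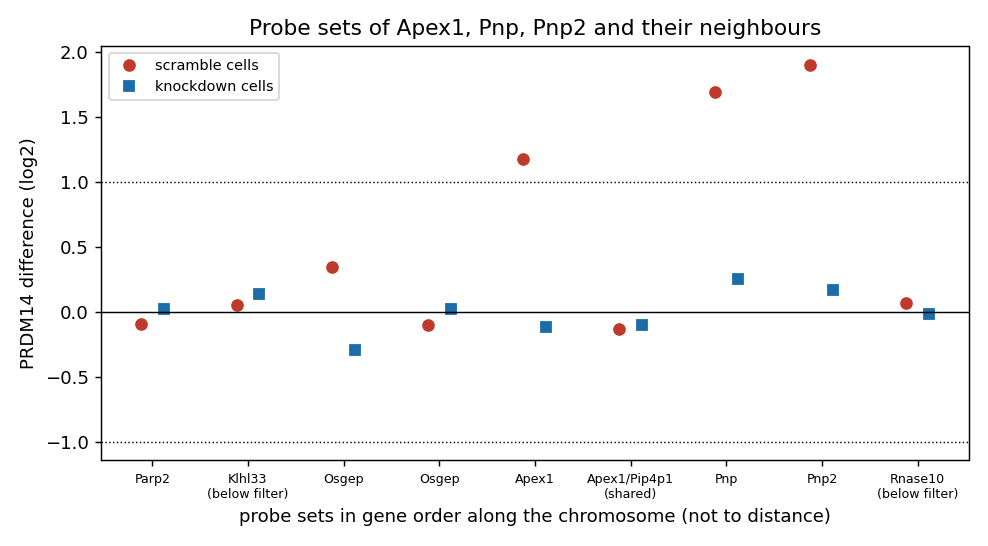
Log2 PRDM14 difference in scramble (circles) and knockdown cells (squares) for each probe set along the chromosome in gene order, with dotted lines at 2-fold. In scramble cells Apex1, Pnp and Pnp2 lie at 1.18, 1.70 and 1.91, and the probe sets of Parp2, Klhl33, Osgep and Rnase10 and the shared one lie between −0.13 and 0.35.

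Among nucleoside phosphorylases, 3 of 4 tested genes were called higher in the scramble PRDM14 comparison, where 1.09% of all genes were. These 3 are Pnp, Pnp2 and Upp1 themselves. The other one, Mtap, the phosphorylase of methylthioadenosine, read 9.34, 9.21, 9.48 and 9.36 on the arrays in the order scramble, scramble with PRDM14, knockdown, then both, a difference of −0.14. Other Mtap probe sets above the filter gave −0.13, −0.03 and −0.08. For the knockdown without PRDM14 they gave 0.17, 0.50 and 0.51, against 0.14 on the brightest. In the rest of purine salvage and catabolism 0 of 13 tested genes were called in any of the 4 comparisons, against 2.09% of all genes called in either direction in the scramble PRDM14 comparison, 0.63% and 1.06% in the next 2 and 1.1% in the last. The median of this list in the first comparison was 0.28, with 9 genes above and 4 below 0, beside 0.002 for all genes. Its largest values were Ampd2 (AMP deaminase) at 0.85, Ada (adenosine deaminase) at 0.73 and Aprt (adenine phosphoribosyltransferase) at 0.73. A second probe set gave 0.02 for Ampd2 and 0.64 for Aprt. Aprt read 10.44, 11.17, 11.15 and 10.93 on the 4 arrays, which put its differences at −0.22 for PRDM14 in knockdown cells and at 0.71 and −0.24 for the knockdown without and with PRDM14.

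Pyrimidine salvage, where Upp1 acts, had 0 of 16 tested genes called in the 4 comparisons. Over all genes 2.09%, 0.63%, 1.06% and 1.1% were called in them, so 0 of 16 does not set the list apart. The median of this list in the scramble PRDM14 comparison was −0.05, with 5 genes above and 11 below 0. CTP synthase gene Ctps2 was at −0.68 (0.23 on another probe set), the deaminase gene Dctd at −0.48, the nucleotidase gene Nt5c3 at −0.46 and thymidine kinase gene Tk1 at 0.47. The equilibrative nucleoside transporters Slc29a1, Slc29a2 and Slc29a3 were at −0.17, −0.22 and −0.12, and 0 of 3 were called, beside 2.09% of all genes.

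In the synthesis pathways 1 gene was called. Prps2, which makes the ribose phosphate donor of purine synthesis, read 6.35 in scramble cells and 7.75 with PRDM14, a difference of 1.40, and 7.10 and 7.82 on the knockdown arrays, a difference of 0.71. Another probe set of Prps2 above the filter gave 0.44 and 0.11. Prps2 was the 1 called of 10 tested genes of purine synthesis in the scramble PRDM14 comparison, where 2.09% of all genes were called. The median of the 10 was 0.03, and Prps1, a relative of Prps2, was at 0.03. Of the 3 genes of pyrimidine synthesis Dhodh was at 0.54, Umps at 0.20 and Cad at −0.30, with 0 called. Other probe sets above the filter gave 0.33 for Dhodh, 0.43 for Umps and −0.53 for Cad.

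Apex1 was the 1 called gene of 21 tested in base excision repair in the scramble PRDM14 comparison, where 2.09% of all genes were called. Its call is no result about the list, since Apex1 was chosen with these values known. The list had 10 genes above and 11 below 0 and a median of −0.01, beside 0.002 for all genes. Tdp1, which clears blocked DNA ends, was at −0.80 and Fen1, the flap endonuclease, at 0.39. The glycosylase genes Ung and Nthl1 were at −0.11 and 0.11 there and at −0.40 and −0.42 for PRDM14 in knockdown cells. In the 3 other comparisons 0 of 21 genes were called, beside 0.63%, 1.06% and 1.1% of all genes. At such shares 0 calls among 21 genes do not set the list apart.

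**Figure D5:**
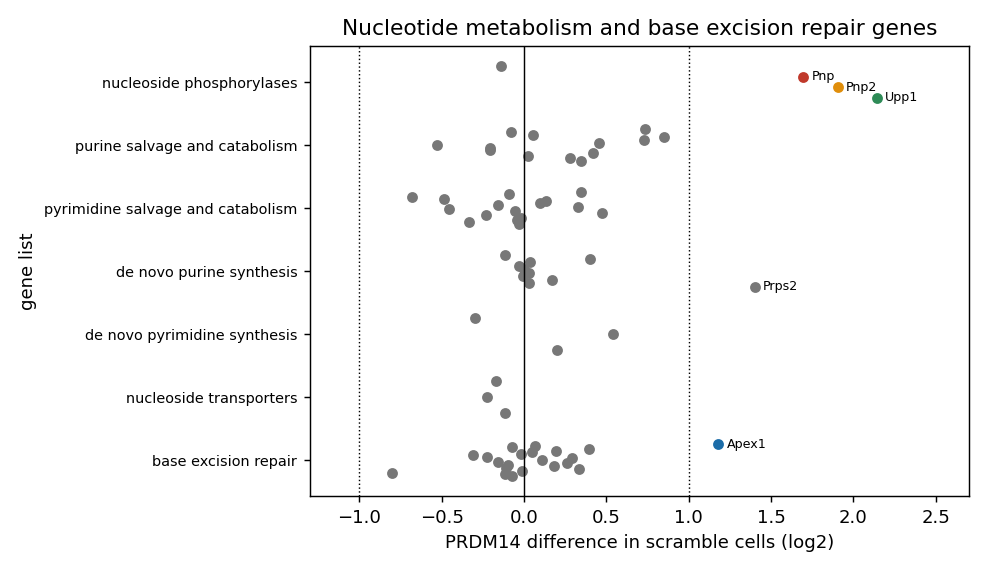
Log2 PRDM14 difference in scramble cells of each gene above the filter, by gene list, with dotted lines at 2-fold and the 4 members coloured. Past 2-fold lie Pnp, Pnp2, Upp1, Prps2 (1.40) and Apex1, all above 0.

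The profiles most like each member over the 4 arrays were ranked by the root mean square distance between profiles centred on their own means, among 10518 other genes. Profiles were not scaled, so distances and ranks depend on how far a gene moved as well as on its pattern. For Pnp2 the nearest were Bmt2 (0.06), Pnp (0.09), Spry4 (0.10), Eras (0.11), 1700097N02Rik (0.13) and F2r (0.13). For Pnp they were Spry4 (0.03), Bmt2 (0.07), Pnp2 (0.09), Eras (0.09), F2r (0.13) and Efhd1 (0.13). Pnp was thus 2nd for Pnp2, and Pnp2 was 3rd for Pnp. Other probe sets of Spry4 above the filter gave scramble PRDM14 differences of 0.23 and 0.40 against 1.64 on its brightest. Bmt2 was below the filter on the scramble array, at 5.18, and its other probe set gave 1.23 against 1.81, with 0.09 against 0.96 for the knockdown without PRDM14. Of the others of 1700097N02Rik, the one above the filter gave 1.11 against 1.94.

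Upp1, with the widest range of the 4 genes (2.14, against 1.18 for Apex1), had fewer close profiles by this unscaled distance. Its nearest was Sgms2 at a distance of 0.15, followed by Pnp2 (0.24), Ifitm3 (0.26), Prr13 (0.28), Pnp (0.29) and Nqo1 (0.30). Sgms2 was below the filter on the scramble array alone, at 4.81, and a second probe set, below the filter on all arrays, gave a difference of 0.16 against 2.01. For Apex1 the nearest were Cetn2 (0.04), Capn2 (0.05), Gadd45a (0.05), Gpx1 (0.06), Wt1 (0.07) and Zfp423 (0.07). Wt1 was below the filter on the scramble array, at 4.69. Pnp ranked 207th, Pnp2 447th and Upp1 1946th in likeness to Apex1, at distances of 0.23, 0.28 and 0.38. At the same distances, Apex1 ranked 29th for Pnp, 31st for Pnp2 and 22nd for Upp1. The 4 points of each profile are the 4 arrays, so these distances describe them and are no test.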

How the data were processed

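For each array 150 ng of total RNA was used, per the labels' protocols. Signals were deposited per probe set on a log2 scale, already normalised between arrays. The base and the normalisation were inferred from the values, the base from the range of 2.78 to 13.2. The submitters' processing notes name Affymetrix Expression Console, with no version, summary method or genome build. Of 45141 probe sets, 104 were controls, and a platform annotation named 1 gene for 28898, several for 551 and none for 15588. Entrez identifiers of 28689 matched the RefSeq table, which changed 0 symbols. Where a gene had several probe sets, the brightest on average stood for it. The filter was the median of named probe set values, and no column was left out. With 1 array per group a call is a size rule, not a test. The members and lists were chosen with earlier results of these data known. Named genes were the members, neighbours, called list members with up to 4 more per list by size, and the 6 nearest profiles of members with a range of at least 1. Alternatives were other folds, filters, probe set choices and scalings. Python 3.11.15, pandas 2.3.3 and numpy 2.4.6 were used.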

Additional observations from a re-analysis of the deposited data

Results flagged for a closer look

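Some genes had differences of opposite sign for the same factor in the 2 backgrounds, each beyond the pooled SD between probe sets, and the difference between backgrounds was not tested. Such signs were found for PRDM14 in 4.99% and for the knockdown in 6.64% of 10519 genes. All 4 members had them for the knockdown, and Upp1 also for PRDM14. The members were chosen with differences between these arrays known, so the shares are background only. The difference of the PRDM14 differences was −1.29 for Apex1, −1.44 for Pnp, −1.73 for Pnp2 and −2.57 for Upp1. By the same measure Osgep was at −0.64, Aprt at −0.95, Adss at −0.54, Nthl1 at −0.53, Tdp1 at 0.78, Cad at 0.49 and Slc29a2 at 0.43. Other genes were named because their profile over these same 4 arrays was like a member's. Values like that member's follow from this choice, so these genes are no further instances. They were at the following values: 1700097N02Rik (−1.51), Bmt2 (−1.51), Capn2 (−1.33), Cetn2 (−1.17), Efhd1 (−0.98), Eras (−1.35), F2r (−1.28), Gadd45a (−1.17), Gpx1 (−1.15), Ifitm3 (−3.13), Nqo1 (−1.71), Prr13 (−1.51), Sgms2 (−2.51), Spry4 (−1.40), Wt1 (−1.09) and Zfp423 (−1.34). Other probe sets of the genes named in this section above the filter gave −0.68 for Bmt2 and −0.98 for 1700097N02Rik. They gave −0.17 and −0.45 for Spry4, 0.12 for Osgep, −1.17 for F2r, −1.09 for Cetn2, −0.87 for Aprt and 0.82 for Cad. Those of Bmt2, Spry4 and Osgep lack opposite signs beyond the pooled SD. For the knockdown without and with PRDM14, that of Bmt2 gave 0.09 and −0.59, the first within the pooled SD. Those of Spry4 gave 0.10 and −0.07, and 0.48 and 0.03, and that of Osgep gave −0.10 and 0.02. For PRDM14 in scramble and knockdown cells, that of Osgep also gave −0.10 and 0.02.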

How the results depend on the processing

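No paired analysis was possible because each condition had 1 array, and no replicate could be left out. No member difference past 2-fold changed sign under any alternative, and 122 of 130 recomputed member differences moved by less than the pooled SD between probe sets. Many of the 122 could not move. Each member had 1 single-gene probe set, above the filter on every array, so other filters and averaging of probe sets returned the same value. The other 8 of the 130 moved further, when arrays were centred on the Actb and Gapdh controls, an alternative chosen after the data were seen. The member median was then 1.51 for PRDM14 in scramble cells and −1.33 for the difference of differences. For the knockdown without PRDM14, 1 member was called with that centring, among 119 called genes. The share of called genes that were higher also moved, from 52.1% to 19.3% for PRDM14 in scramble cells, from 58.2% to 21.8% for the knockdown without PRDM14 and from 43.1% to 78.6% for the difference of differences. Other folds left the genes tested at 10366, 10311, 10351 and 10322 in the 4 comparisons and at 10519 for the difference of differences. At 1.5-fold, 849, 290, 527 and 448 of these genes were called in the 4 comparisons in the order of the report and 957 for the difference of differences. With that fold, 4 members were called for the knockdown without and 3 with PRDM14. At 3-fold, the counts were 52, 13, 21, 12 and 49, with 0 members called for the knockdown without PRDM14, 0 with it and 2 for the difference of differences. With all probe sets of a gene averaged, 43 genes were called for PRDM14 in knockdown cells. Leaving out probe sets ending in _x_at, _s_at or _a_at removed Pnp and Pnp2. Then 2 members were called for PRDM14 in scramble cells, 1 for the knockdown without PRDM14 and 2 for the difference of differences. Over all genes 168, 97 and 195 were called there. The medians of the remaining pair were −0.27 for PRDM14 in knockdown cells, −0.84 for the knockdown with PRDM14 and −1.93 for the difference of differences. Median centring and quantile normalization left the number of members called as reported in all 4 comparisons.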
